A study of Mus musculus with 6 samples.

Results

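Transcripts of lysosomal cathepsins, lysosome-associated membrane proteins (LAMPs) and subunits of the vacuolar proton pump were compared between URE cells labelled shHLX and URE cells labelled shControl. The genes were taken by symbol: cathepsins named by 1 letter other than Ctsc and Ctsg, the numbered Lamp genes, and all subunits of the pump whose symbols begin with Atp6v0 or Atp6v1. Each gene had to have a probe set that the platform annotation gives to it alone, and the probe set with the highest mean over the 6 arrays stood for the gene. This gave 40 of the 19938 genes tested: 15 cathepsins, 4 LAMPs, 8 genes of the V0 sector and 13 of the V1 sector.

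URE is a mouse leukaemia line, known as background to come from mice that lack an upstream regulatory element of Spi1, the gene of the myeloid factor PU.1, so both groups share that deletion. In the shHLX group a lentivirus carried a short hairpin directed at Hlx, a homeobox gene, and in the shControl group the same vector carried a hairpin directed at luciferase. Cells grew in serum with conditioned supernatants or myeloid cytokines, and carriers of the vector were sorted by its green fluorescent protein; the labels differ on whether culture for several days came before or after the sort. Amplified RNA of each group was measured on 3 Affymetrix arrays. The labels do not say whether replicates came from separate transductions, so p-values measure the spread between these arrays, which may be technical. The series addressed the part of Hlx in blood cell differentiation and leukaemia.

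Lysosomes are acidic compartments in which hydrolases break down proteins, lipids and sugars. Cathepsins are their main proteases, LAMPs coat the inner face of the membrane with glycans, and the vacuolar ATPase (V-ATPase) pumps protons in: its V1 sector splits ATP in the cytosol and its V0 sector carries the protons across the membrane. In myeloid cells the same machinery serves the digestion of ingested material and the processing of granule enzymes. Many of these genes hold a CACGTG-type site, known as the CLEAR element, that is bound by the transcription factors of the MiT/TFE family.

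The arrays themselves were alike, with median log2 signals from 7.02 to 7.10, and 1 principal component with 59.4% of the variance separated the groups. A second component with 18.1% set shHLX 3 (9.10) and shControl 1 (9.53) apart from the other 4 arrays (-9.04 to -0.64). Hlx mRNA read 10.08, 10.06 and 10.17 on the arrays labelled shHLX, against 10.21, 10.12 and 10.20 on the shControl arrays. The difference was -0.07 on the log2 scale, and it passed neither limma (adjusted p = 0.479) nor a permutation of the arrays (exact, two-sided p = 0.2; the smallest p that this design allows is 0.1). The direction of each comparison therefore rests on the labels. Of 10 genes fixed as markers of myeloid progenitors, 9 lay above the median signal of all genes, and Ms4a3, Mpo and Kit fell on the arrays labelled shHLX. The mean log2 signal of that marker list was 10.64 to 10.71 on the shHLX arrays and 11.23 to 11.26 on the shControl arrays. That gap lies in these 3 genes: the other 7 markers differed by -0.10 to 0.06 on the log2 scale and did not pass, and the median difference of the list was -0.04.

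Of the 40 genes, 6 rose and 1 fell in the cells labelled shHLX by limma, at an adjusted p under 0.05 over all genes tested. The risers were the cathepsin genes Ctsf, Ctsl, Ctse and Ctsd, the V0 gene Atp6v0a1 and the V1 gene Atp6v1b2, and the gene that fell was the cathepsin gene Ctsh. These counts are 15% and 2.5% of the 40, beside 3.75% called higher and 2.43% called lower among all genes, and 17.5% beside 6.18% for both directions together. The changes were small: the rises ran from 1.13-fold to 1.53-fold, and Ctsh differed by -0.50 on the log2 scale. The median difference of the 40 genes was 0.09 on the log2 scale, beside -0.01 for all genes, and 26 of the 40 differences were positive, where 45.4% of all genes had a positive one. All 3 arrays labelled shHLX lay above all 3 shControl arrays for 18 of the 40 genes (45%, beside 14.7% of all genes) and below them for 1 gene (2.5%, beside 11.4%).

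Array by array, 24, 37 and 25 of the 40 genes were above their own mean on shHLX 1, 2 and 3, against 7, 16 and 13 on shControl 1, 2 and 3. The array shHLX 2 was thus the one on which the most members were high, and shControl 1 the one on which the most were low. The same count was not made over all genes, so it cannot be told whether this is particular to the members. Whether fewer cells of some type or less RNA per cell lies behind a lower signal cannot be told apart in bulk RNA.

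**Figure D1:**
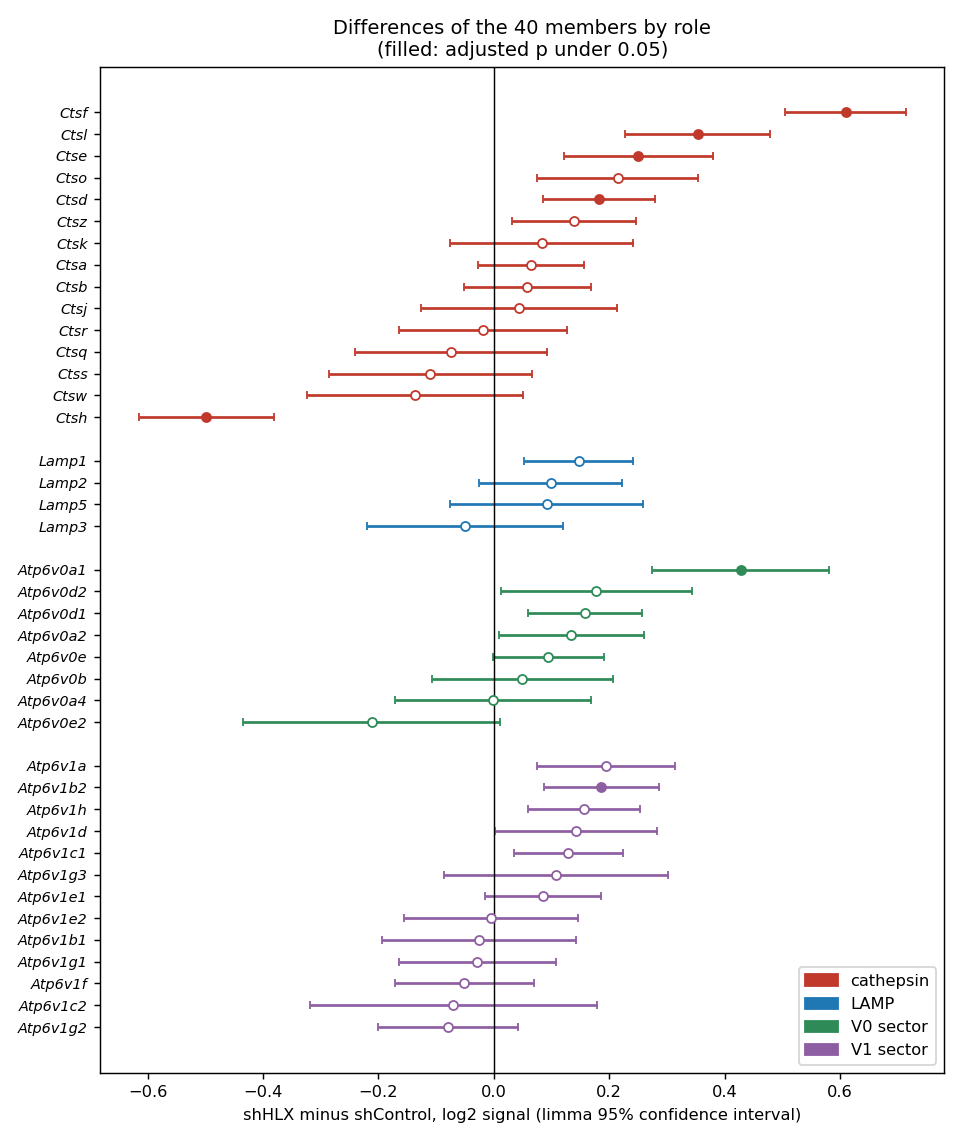
Difference in log2 signal (shHLX minus shControl, horizontal axis) of the 40 genes, grouped by role and ordered by size within a role, with limma's 95% confidence interval from 3 arrays a group; filled points passed an adjusted p of 0.05. Most intervals of the cathepsins from Ctsf down to Ctsz, of Lamp1 and of the broadly expressed pump subunits lie above 0, and Ctsh is alone far below it.

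The largest change among the cathepsins was that of Ctsf, which encodes the cysteine protease cathepsin F (probe set 10460468). Its log2 signal was 8.78, 8.77 and 8.74 on the arrays labelled shHLX, against 8.10, 8.19 and 8.17 on the shControl arrays. The groups were far apart relative to their spread, with means of 8.76 ± 0.025 for shHLX and 8.15 ± 0.049 for shControl (SD, n = 3 each). The arrays labelled shHLX were 1.53-fold higher (interval of the fold at 95% confidence 1.42 to 1.64), limma gave an adjusted p of 0.000188, and the rise passed whichever array was left out, with an adjusted p of at most 0.00248.

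Ctsh, which encodes cathepsin H, a cysteine cathepsin that acts mainly as an aminopeptidase, went the other way (probe set 10587733). It read 6.46, 6.43 and 6.53 on the arrays labelled shHLX, against 7.02, 6.91 and 6.99 on the shControl arrays. All shHLX values lay below all shControl values, and the log2 difference was -0.50 (SE 0.050, limma adjusted p = 0.000946). The fall passed without any single array as well, with an adjusted p of at most 0.00853. Both groups read below the median signal of all genes, and no background values were used, so the size of the fall may be understated.

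Ctsl encodes cathepsin L, a broadly expressed lysosomal endopeptidase (probe set 10410124). Its signal was 9.98, 10.07 and 9.94 on the arrays labelled shHLX, against 9.67, 9.58 and 9.69 on the shControl arrays, so the groups did not overlap. Ctsl rose 1.28-fold (between 1.17 and 1.39 at 95% confidence), with an adjusted p of 0.00748 in limma, and passed whichever array was left out. In a test without variance moderation it did not pass (adjusted p = 0.0549).

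Both aspartic cathepsins rose slightly. Ctse, whose product cathepsin E is found in endosomes and the endoplasmic reticulum of immune and epithelial cells, read 9.41, 9.58 and 9.49 on the arrays labelled shHLX, against 9.24, 9.19 and 9.29 on the shControl arrays (probe set 10349648). The groups did not overlap, and the rise was 1.19-fold (limma adjusted p = 0.0402). Ctsd, the gene of cathepsin D, the chief aspartic protease of lysosomes, read 12.24, 12.27 and 12.30 on the arrays labelled shHLX, against 12.07, 12.09 and 12.10 on the shControl arrays (probe set 10569319). Its rise was 1.13-fold (between 1.06 and 1.21 at 95% confidence), with an adjusted p of 0.0451 in limma, a small step between groups whose arrays were close to each other. Both calls were near the threshold: Ctsd was lost without any 1 of the arrays (adjusted p 0.0935 to 0.142), and Ctse was lost without each array but shHLX 1 (up to 0.133).

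Of the other cathepsins, Ctso and Ctsz had an unadjusted p under 0.05 but did not pass over all genes. Ctso, a broadly expressed cysteine cathepsin gene, read 9.36, 9.39 and 9.56 on the arrays labelled shHLX, against 9.21, 9.24 and 9.21 on the shControl arrays (log2 difference 0.22, limma adjusted p = 0.0901). Ctsz, which encodes the carboxypeptidase cathepsin Z, also called X, read 12.27, 12.36 and 12.38 on the arrays labelled shHLX, against 12.18, 12.19 and 12.23 on the shControl arrays (log2 difference 0.14, limma adjusted p = 0.149). In neither gene did the groups overlap, and in Ctso the array shHLX 3 stood above the other shHLX arrays.

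The remaining cathepsins differed little. Ctsb, the gene of the abundant lysosomal protease cathepsin B, had a log2 difference of 0.06, with a 95% confidence interval from -0.05 to 0.17. Ctsa, which encodes a serine carboxypeptidase that also protects lysosomal sialidase and galactosidase, had a log2 difference of 0.06 as well, and its groups did not overlap. Cathepsins with specialised cell types gave differences of 0.08 for Ctsk, the collagen-degrading cathepsin of osteoclasts, -0.11 for Ctss, which cleaves the invariant chain in antigen-presenting cells, and -0.14 for Ctsw, known from cytotoxic lymphocytes. The rodent placental cathepsin genes Ctsj, Ctsq and Ctsr lay between -0.07 and 0.04, and none of these 8 genes passed the test. Ctsk, Ctss and Ctsw lay at percentiles 27.2 to 32.4 of mean signal among all genes, and the placental genes at 3.03 to 16.6. At such dim signals a small difference does not show that a transcript was unchanged. The placental cathepsins are close copies of each other that probe sets may not separate, and the 4 probe sets that the annotation gives jointly to Cts3 and Ctsm were left out.

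**Figure D2:**
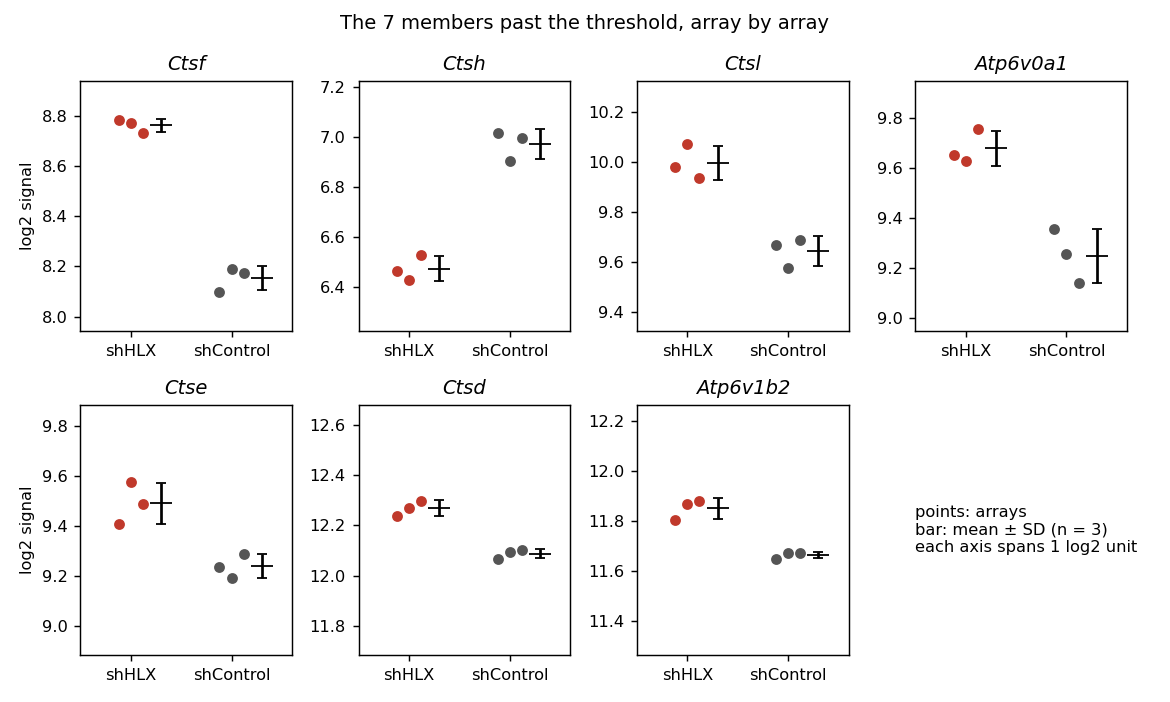
Log2 signal of the 7 genes past the threshold on each array (points), with the mean and SD of 3 arrays a group (bars), the arrays labelled shHLX on the left of each panel and the shControl arrays on the right. Every vertical axis spans 1 log2 unit, so panels can be compared by the size of the step: Ctsf shows the widest gap and Ctsd and Atp6v1b2 the narrowest.

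None of the 4 LAMP genes passed the test. Lamp1, the gene of the most abundant lysosomal membrane glycoprotein, read 12.16, 12.21 and 12.16 on the arrays labelled shHLX, against 12.02, 12.03 and 12.04 on the shControl arrays. The groups did not overlap, and the log2 difference of 0.15 (SE 0.041) had a limma adjusted p of 0.0882. Lamp1 did pass when the variance model had a trend over intensity, without variance moderation and in both tests that left out dim genes. It did not pass in limma with any 1 of the arrays left out (adjusted p 0.151 to 0.227). Lamp2, whose product also serves in chaperone-mediated autophagy, read 11.63, 11.62 and 11.75 on the arrays labelled shHLX, against 11.62, 11.56 and 11.53 on the shControl arrays. Its groups touched at 11.62, and the log2 difference was 0.10 (limma adjusted p = 0.370). Lamp3, known from mature dendritic cells, and Lamp5, known from neurons and plasmacytoid dendritic cells, had log2 differences of -0.05 and 0.09, with groups that overlapped. Both were dim, at percentiles 8.46 and 18.4 of mean signal among all genes.

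In the V0 sector, 1 of 8 genes rose. This is 12.5%, beside 3.75% of all genes and 6.17% of all genes above the median signal, where 5 of the 8 lay. Atp6v0a1 encodes an isoform of the large membrane subunit a, which helps to form the path of the protons (probe set 10381187). It read 9.65, 9.63 and 9.76 on the arrays labelled shHLX, against 9.36, 9.26 and 9.14 on the shControl arrays. The shControl arrays were the more scattered, and the lowest shHLX array still lay above the highest of them. The rise was 1.35-fold, or 0.43 on the log2 scale with an SE of 0.066. Its adjusted p in limma was 0.00774, it passed whichever array was left out (up to 0.0351), and it did not pass without variance moderation (0.0750).

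The other isoforms of subunit a did not pass the test. Atp6v0a2, known from Golgi and early endosomes, read 10.18, 10.33 and 10.29 on the arrays labelled shHLX, against 10.12, 10.09 and 10.18 on the shControl arrays. The groups met at 10.18, the log2 difference was 0.13 (limma adjusted p = 0.230), and a second probe set of the gene gave 0.02. Tcirg1, the gene of the isoform a3 of osteoclasts and late lysosomes, has a symbol outside the rule and was read beside the members. It gave 11.79, 11.83 and 11.83 on the arrays labelled shHLX, against 11.87, 11.88 and 11.88 on the shControl arrays. The log2 difference was -0.06 (limma adjusted p = 0.477), and every array labelled shHLX lay below every shControl array. The kidney isoform gene Atp6v0a4 differed by -0.001. The differences between isoforms were not tested against each other.

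Atp6v0d1, whose product couples the rotor to the V1 stalk, read 10.52, 10.53 and 10.55 on the arrays labelled shHLX, against 10.37, 10.41 and 10.34 on the shControl arrays (log2 difference 0.16, limma adjusted p = 0.0788). Its groups were clearly apart, and the call was missed narrowly. Atp6v0d2, the osteoclast and kidney isoform, read 4.93, 4.82 and 4.82 on the arrays labelled shHLX, against 4.74, 4.77 and 4.53 on the shControl arrays, a low signal at which 0.18 on the log2 scale did not pass (limma adjusted p = 0.229). Atp6v0e2, known from brain, read 7.25, 7.43 and 7.08 on the arrays labelled shHLX, against 7.33, 7.53 and 7.54 on the shControl arrays. The groups overlapped, and -0.21 was the lowest difference in the pump (limma adjusted p = 0.282). The proteolipid gene Atp6v0b and the small subunit gene Atp6v0e differed by 0.05 and 0.09. No probe set is named for Atp6v0c, the gene of the main proteolipid, which was therefore not analysed here.

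In the V1 sector, 1 of 13 genes rose. This is 7.69%, near the 6.17% called higher among all genes above the median signal, where 9 of the 13 lay. Atp6v1b2 encodes the broadly expressed isoform of the nucleotide-binding subunit B (probe set 10572146). It read 11.80, 11.87 and 11.88 on the arrays labelled shHLX, against 11.65, 11.67 and 11.67 on the shControl arrays. The groups did not overlap, and the rise was 1.14-fold (between 1.06 and 1.22 at 95% confidence), with an adjusted p of 0.0456 in limma. The call was lost without any 1 of the arrays (adjusted p 0.0746 to 0.153).

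Its partner in the catalytic ring, Atp6v1a, which encodes the ATP-splitting subunit A, read 11.10, 11.25 and 11.13 on the arrays labelled shHLX, against 10.95, 10.95 and 10.99 on the shControl arrays. The log2 difference was 0.19, as for Atp6v1b2, and the wider spread of the shHLX arrays left it at a limma adjusted p of 0.0758. Atp6v1h, a regulatory subunit, read 9.28, 9.32 and 9.31 on the arrays labelled shHLX, against 9.12, 9.17 and 9.17 on the shControl arrays (log2 difference 0.16, limma adjusted p = 0.0800). The groups of both genes lay apart.

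Atp6v1c1, whose product holds the V1 and V0 sectors together, read 9.83, 9.85 and 9.79 on the arrays labelled shHLX, against 9.70, 9.68 and 9.70 on the shControl arrays (log2 difference 0.13, limma adjusted p = 0.127). Atp6v1d, a gene of the central stalk, read 10.47, 10.57 and 10.49 on the arrays labelled shHLX, against 10.40, 10.26 and 10.44 on the shControl arrays (log2 difference 0.14, limma adjusted p = 0.253). Neither gene overlapped between the groups, nor did the peripheral stalk gene Atp6v1e1 at 0.09. The stalk genes Atp6v1f (-0.05) and Atp6v1g1 (-0.03) gave negative differences, as did a second probe set of each, at -0.04 and -0.04. The tissue-restricted genes Atp6v1b1, Atp6v1c2, Atp6v1e2, Atp6v1g2 and Atp6v1g3, known from kidney, other epithelia, testis or brain, lay between -0.08 and 0.11. Their groups overlapped.

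A division of the pump genes by where they are known to be expressed was made after the values were seen and is a description with no test. Of the 13 broadly expressed subunits or isoforms, 11 had a positive difference, 9 did not overlap between the groups, 2 passed the test, and the median difference was 0.13. All 13 lay above the median signal, where 24.7% of all genes had groups apart in the upward direction and 6.17% were called higher. Of the 8 tissue-restricted isoforms, 2 had a positive difference, 1 did not overlap, 0 passed (limma, with 1 at an unadjusted p under 0.05), and the median was -0.02. Only 1 of these 8 lay above the median signal, so tissue range and signal level cannot be told apart here; over genes of every signal 14.7% had groups apart upward and 3.75% were called higher.

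Signal and direction went together on these arrays, for all genes as for the members. Above the median signal of all genes, 56.2% of all genes and 21 of 24 members had a positive difference; at or below it, 34.6% of all genes and 5 of 16 members did. Among the genes above the median, 6 of 24 members rose (25%, beside 6.17% of all such genes), and 17 of 24 had groups apart in the upward direction (70.8%, beside 24.7%). The part of signal level in the members' counts was not tested. At an unadjusted p under 0.05, 16 of the 40 genes were higher (40%, beside 10.8% of all genes). At that level 1 of the 40 was lower, beside 1715 of all 19938 genes. Of the 24 members above the median signal, 15 were higher (62.5%, beside 17.5% of all such genes).

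**Figure D3:**
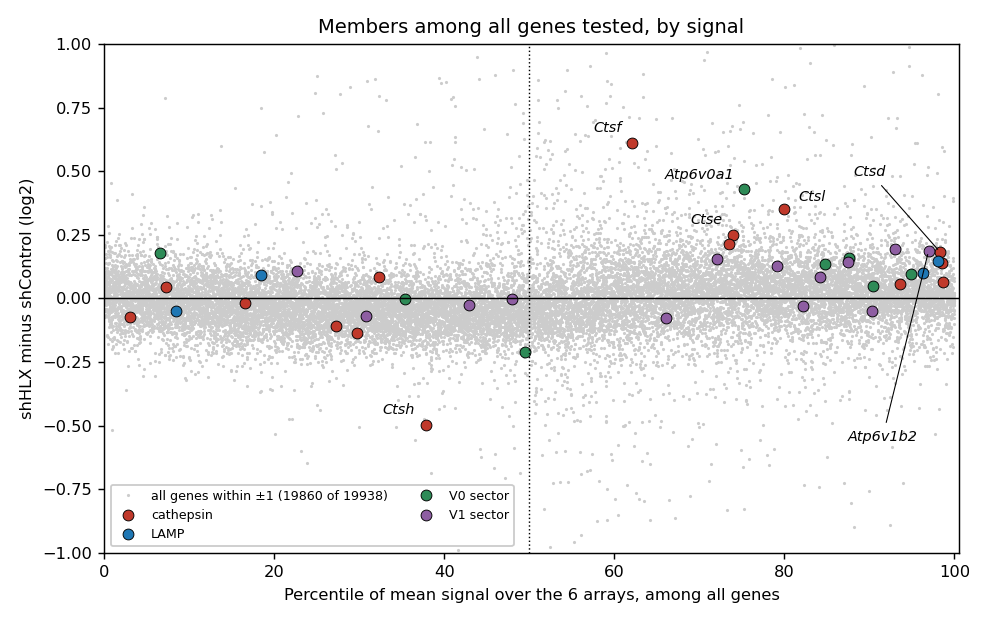
Difference in log2 signal (shHLX minus shControl, vertical axis) against the percentile of a gene's mean signal over the 6 arrays (horizontal axis), for 19860 of the 19938 genes tested (grey; 78 genes lie outside the axis) and for the 40 members coloured by role; the dotted line marks the median. Of the 24 members right of the line 21 lie above 0, against 5 of the 16 left of it, and the called genes are named.

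The 7 calls differed in how much they rested on single arrays. Ctsf, Ctsh, Ctsl and Atp6v0a1 passed whichever array was left out, and also without shControl 1 and shHLX 3 together. Ctsd and Atp6v1b2 passed only with all 6 arrays, and Ctse also without shHLX 1. Without single arrays the number of risers was 3 or 4, against 6 with all arrays, and Ctsh stayed the only fall. Among all genes, those called higher numbered 441 to 544 without single arrays, against 748 with all arrays.

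**Figure D4:**
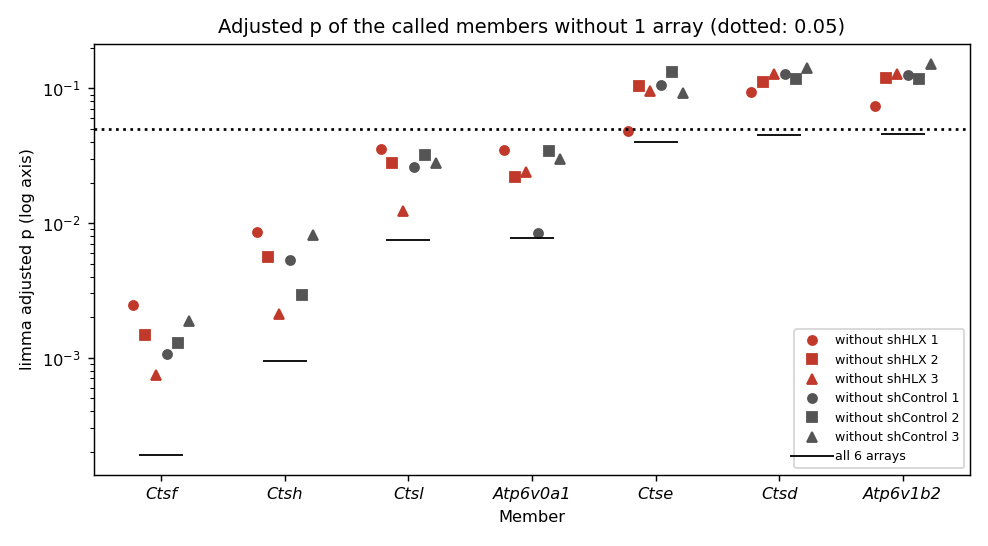
Adjusted p of limma (vertical log axis) for the 7 called genes with each array left out in turn (points, red for arrays labelled shHLX and grey for shControl arrays) and with all 6 arrays (bars); the dotted line marks 0.05. Points of Ctsf, Ctsh, Ctsl and Atp6v0a1 lie below the line, and those of Ctse, Ctsd and Atp6v1b2 lie above it except Ctse without shHLX 1.

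The promoter letters of the members were read for the core of the CLEAR element, CACGTG, which reads the same on both strands. RefSeq promoter sequences of build GRCm38.p6 were matched for 30 of the 40 genes, and the 250 bases before the annotated start were searched, where a gene may have further starts that were not. CACGTG was found for 7 of the 30 members (Atp6v0b, Atp6v1a, Ctsa, Ctsd, Ctsf, Ctsl and Lamp1), or 23.3%, beside 6.86% of 27025 genes with such a sequence and 8.11% of those tested on the arrays. The longer form TCACGTGA, which contains it and also reads the same on both strands, was found for 3 members (Atp6v1a, Ctsa and Ctsd), beside 0.907% of all genes. These matches are a description of letters, not of binding. Many of these genes are known to hold this site, so a higher share was known in advance and is no result about shHLX. For Atp6v0b, Atp6v1a, Ctsa and Ctsl the matching sequence does not lie wholly upstream of the annotated gene, so it may not be promoter sequence. The sequence searched for Atp6v0a1 has the same limit. The shares above count such sequences for members and for all genes alike. Of the called genes, Ctsd, Ctsf and Ctsl hold the core and Atp6v0a1 does not in the sequence searched; Ctse, Ctsh and Atp6v1b2 were not matched.

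The promoters of Ctsf and Ctsd are shown as those of called genes that hold the core directly upstream of the gene, and that of Lamp1 for its 4 copies. Each runs 5′ to 3′ on the gene's strand and ends at the base before the start, with CACGTG in capitals. The core begins 79 bases before the start of Ctsf, 245 and 98 bases before that of Ctsd, and the first copy 61 bases before that of Lamp1.
Ctsf, chr19:4854915-4855164, plus strand: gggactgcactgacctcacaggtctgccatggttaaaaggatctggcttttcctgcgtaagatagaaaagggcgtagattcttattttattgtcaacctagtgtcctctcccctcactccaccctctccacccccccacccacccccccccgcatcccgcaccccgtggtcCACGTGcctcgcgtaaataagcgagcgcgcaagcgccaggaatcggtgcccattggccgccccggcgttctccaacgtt
Ctsd, chr7:142387828-142388077, minus strand: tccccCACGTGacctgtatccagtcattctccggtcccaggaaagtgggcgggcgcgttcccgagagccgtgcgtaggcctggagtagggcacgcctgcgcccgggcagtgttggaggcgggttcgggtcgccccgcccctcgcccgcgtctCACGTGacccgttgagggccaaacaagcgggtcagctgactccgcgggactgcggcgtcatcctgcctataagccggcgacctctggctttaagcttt
Lamp1, chr8:13158911-13159160, plus strand: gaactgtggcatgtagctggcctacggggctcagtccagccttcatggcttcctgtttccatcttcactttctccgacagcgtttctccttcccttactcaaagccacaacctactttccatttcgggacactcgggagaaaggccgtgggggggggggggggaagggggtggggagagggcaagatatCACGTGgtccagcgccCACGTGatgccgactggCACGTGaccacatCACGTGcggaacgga

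Genes that serve the same compartment were read from 8 further lists, with 155 of 166 genes measured. Of these, 12 rose and 6 fell (limma, adjusted p under 0.05), with a median log2 difference of 0.03. These are 7.74% and 3.87%, near the 6.17% called higher and 3.93% called lower among all genes above the median signal, where 143 of the 155 lay. The lists are therefore given for their named genes, not for their counts. Among 23 genes of MiT/TFE factors and of the mTORC1 branch that controls them, 3 rose and 0 fell in limma, with 7 higher and 2 lower at an unadjusted p under 0.05. The shares higher were 13.0% and 30.4%, beside 6.17% and 17.5% of all genes above the median signal, where 22 of the 23 lay. The factor gene Mitf read 8.76, 8.74 and 8.77 on the arrays labelled shHLX, against 8.44, 8.46 and 8.55 on the shControl arrays, and rose 1.21-fold (limma adjusted p = 0.0126). Tfe3, of the same family, read 9.53, 9.65 and 9.55 on the arrays labelled shHLX, against 9.32, 9.35 and 9.36 on the shControl arrays, and rose 1.17-fold (limma adjusted p = 0.0309). In both genes the groups lay apart. The Rag GTPase gene Rraga rose 1.16-fold. The other family members Tfeb and Tfec had log2 differences of -0.02 and -0.04 and did not pass. Tfe3 and Rraga were lost without any 1 array, and Mitf without 3 of the 6.

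Of 32 acid hydrolase genes, 3 rose (9.38%) and 2 fell (6.25%), close to the shares of 6.17% and 3.93% among all genes above the median signal. At an unadjusted p under 0.05, 7 were higher (21.9%, beside 17.5% of all genes above the median signal). At that level 5 of the 32 were lower, beside 1033 of the 9969 genes above the median signal. Gm2a, which encodes the activator that presents the ganglioside GM2 to hexosaminidase, had the largest rise in these lists, at 11.01, 11.03 and 11.11 on the arrays labelled shHLX against 10.26, 10.18 and 10.20 on the shControl arrays. Gm2a thus rose 1.78-fold, between 1.65 and 1.93 at 95% confidence (adjusted p of 5.25e-05 in limma). Scpep1, a serine carboxypeptidase gene related to Ctsa, rose 1.31-fold, and Lipa, the acid lipase gene, rose 1.22-fold. The glycosaminoglycan-degrading enzyme genes Arsb (-0.31) and Idua (-0.25) fell. The hexosaminidase gene Hexa had a log2 difference of -0.17, with groups apart, and did not pass (limma adjusted p = 0.105).

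Among 14 partners of the pump, Ncoa7 (1.28-fold) and the assembly factor gene Tmem199 (1.30-fold) rose, and Oxr1 (-0.24) fell; Ncoa7 and Oxr1 both encode TLDc proteins, a family that contacts the V-ATPase. Among 23 genes of the lysosomal membrane, the cation channel gene Tpcn1 rose 1.16-fold and the tetraspanin gene Cd63 fell by 0.68 on the log2 scale. Cd68, a LAMP relative of macrophages, read 9.15, 9.14 and 9.19 on the arrays labelled shHLX, against 9.18, 9.10 and 9.21 on the shControl arrays, and did not pass. Of 16 genes of enzyme sorting, the adaptor gene Ap1s2 rose 1.53-fold and the receptor gene Sort1 (-0.20) fell. The shares called higher were 14.3% of the partners, 4.35% of the membrane genes and 6.25% of the sorting genes. Those called lower were 7.14%, 4.35% and 6.25%, in the same order. Among all genes above the median signal, 6.17% were called higher and 3.93% lower.

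Of 6 cathepsin inhibitor genes, Cstb fell, which encodes cystatin B, a cytosolic inhibitor of cathepsins B, H and L. It read 13.01, 12.94 and 12.94 on the arrays labelled shHLX, against 13.20, 13.14 and 13.20 on the shControl arrays (log2 difference -0.21, limma adjusted p = 0.0322). The fall was lost without any 1 array (up to 0.140). This 1 gene is 16.7% of the list, beside 2.43% called lower among all genes. All 6 inhibitor genes had negative differences, and the 5 other than Cstb did not pass. Among these were -0.05 for the secreted cystatin gene Cst3 and -0.04 for Cst7, which encodes an inhibitor of the activation of granule proteases. Of all genes 45.4% had a positive difference, and 34.6% of those at or below the median signal. Only 3 of the 6 inhibitor genes lay above that median. Of 23 genes of vesicle fusion and lysosome-related organelles, the Chediak-Higashi gene Lyst (1.29-fold) and the Hermansky-Pudlak gene Hps1 (0.23 on the log2 scale) rose. In this list 0 fell, and the 2 risers are 8.70% of it. That is near the 6.17% called higher among all genes above the median signal, where all 23 lay. None of 19 autophagy genes passed limma, where 6 had an unadjusted p under 0.05, all higher, and the median difference was 0.06. The 6 are 31.6% of the list, beside 10.8% of all genes and 17.5% of genes above the median signal, where all 19 lay. Of the 18 calls in these lists, those of Gm2a, Scpep1, Cd63, Ap1s2, Ncoa7 and Lyst held without any single array.

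**Figure D5:**
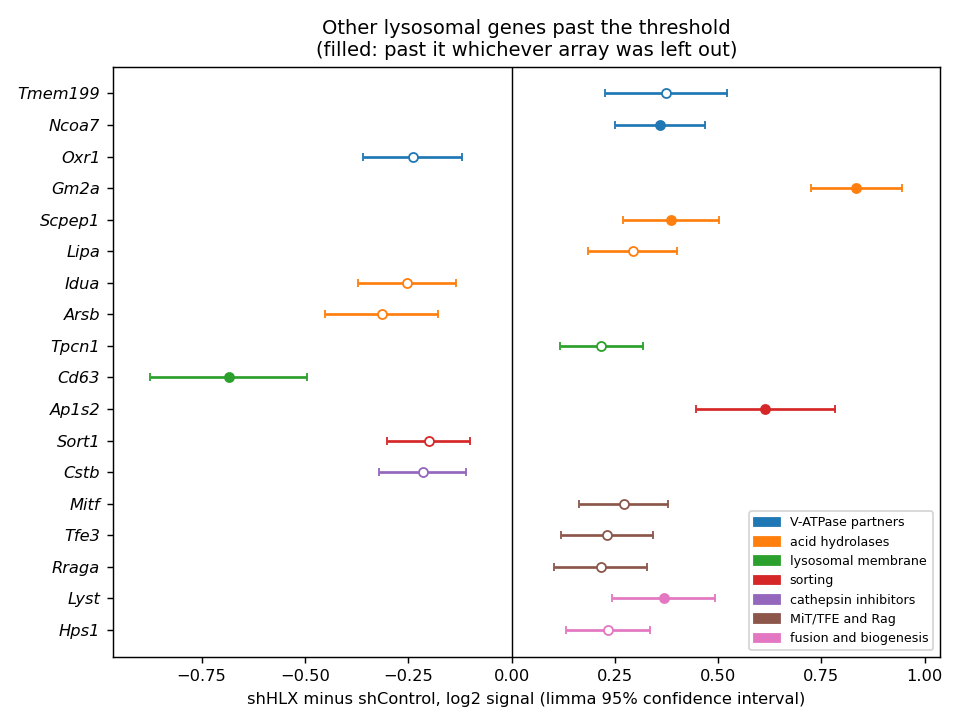
Difference in log2 signal (shHLX minus shControl, horizontal axis) with limma's 95% confidence interval (3 arrays a group) for the 18 genes past the threshold in 7 further lysosomal lists, coloured by list; filled points passed whichever array was left out. Gm2a and Ap1s2 lie farthest to the right and Cd63 farthest to the left, and 12 of the 18 lie above 0.

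Cathepsins C and G, which activate or fill the primary granules of myeloid cells, were left out of the members and are given for comparison. Ctsc read 11.03, 11.13 and 11.21 on the arrays labelled shHLX, against 10.70, 10.70 and 10.69 on the shControl arrays, a 1.34-fold rise (limma adjusted p = 0.00310). Ctsg read 13.57, 13.59 and 13.57 on the arrays labelled shHLX, against 13.59, 13.58 and 13.58 on the shControl arrays, and did not pass (limma adjusted p = 0.953).

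Marker lists of other cell types were read as well, and their part in the members' differences was not tested, nor was that of the progenitor markers that fell. Of 10 macrophage markers, 0 lay above the median signal of all genes, 0 passed limma and 1 was lower at an unadjusted p under 0.05. Their mean log2 signal was 6.12 to 6.19 on the arrays labelled shHLX and 6.08 to 6.24 on the shControl arrays, so the groups overlapped. Of 8 osteoclast markers, 0 passed limma and 1 was lower at an unadjusted p under 0.05, with a mean signal of 6.82 to 6.96 on the arrays labelled shHLX and 6.87 to 6.94 on the shControl arrays. Of 7 dendritic cell markers Flt3 rose 1.56-fold, whereas the other 6 had negative differences down to -0.20 that did not pass, with a list median of -0.05. Of 8 stromal markers Acta2 rose 1.90-fold, and the other 7 differed by -0.10 to 0.07, did not pass, and left the list median at -0.003. None of 8 lymphoid markers and 5 erythroid or megakaryocyte markers measured passed limma. Unadjusted p-values under 0.05 numbered 0 for the lymphoid list and 1, for a lower gene, in the erythroid and megakaryocyte list.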

How the data were processed

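The authors deposited a log2 signal for each probe set and array, made with RMA and Affymetrix Power Tools 1.178 per the submitters' processing notes. RMA corrects background, equalises the arrays' distributions and summarises probes, which can shrink differences of dim genes. No source used here gives the genome build of the probe sets. Of 35556 probe sets, 21789 had 1 symbol, 1621 had several and 12146 were not listed; 19938 genes were tested.

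Differences between groups were tested two-sided and without covariates by limma's lmFit and eBayes (limma 3.58.1, R 4.3.3), with Benjamini-Hochberg adjustment over all genes and a threshold of 0.05. The code was tested on simulated data. The number of arrays limits the precision: a typical member had a replicate SD of 0.0711 (the median of the 40). Named with every array's value are members past the threshold, members at an unadjusted p under 0.05 and the largest 2 differences per role. Of the other lists, genes past the threshold are named, most with their fold or difference alone. Further genes were named after their values were seen. The members and lists were chosen with earlier results of these data known. Python 3.11.15 with matplotlib 3.10.9 drew the figures.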

Additional observations from a re-analysis of the deposited data

How the results depend on the processing

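With all arrays, 6 members rose and 1 fell. The risers numbered 10 among genes above the 25th percentile of signal, 13 among genes above the median (where Ctsh was not tested, so the falls numbered 0), 13 with an intensity trend, 11 at an adjusted p under 0.10 and 3 with all probe sets tested. Over all genes, 748 were called higher in the main test. Under these alternatives, in the same order, 936 of 14953, 1295 of 9969, 1437 of 19938, 1084 of 19938 and 454 of 19938 were. With the replicate number as a block 3 members rose and 1 fell, and 497 of all 19938 genes rose. Same-numbered arrays had correlations of their deviations from the group means of -0.17, 0.13 and -0.15. The largest between the groups was 0.34, for shHLX 3 with shControl 1. With 3 arrays a group, such values cannot decide whether the numbers pair the arrays. Without single arrays, 3 to 4 rose and 1 fell, and without shHLX 3 and shControl 1 together, an alternative added after seeing the data, 3 rose and 1 fell. The cause was not tested, beyond the fewer genes or arrays that some alternatives hold. The falls otherwise numbered 1, the median difference of the members ranged from 0.07 to 0.14, and Hlx was not called under any of the 19 alternatives (adjusted p 0.232 to 0.729). The alternatives that ended calls with all arrays kept were a second quantile normalization (Ctsd, Atp6v1b2), array weights (Ctse), no moderation (Ctsl, Ctse, Atp6v0a1), all probe sets and the block (Ctse, Ctsd and Atp6v1b2 in both). No called member changed direction. Changes near 0.2 on the log2 scale are at the limit of what 3 arrays a group separate, and dim signals have no background values here.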
